A study of Mus musculus with 12 samples.

Results

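Genes for the oxidation of ketone bodies and branched-chain amino acids (BCAAs) were followed in 12 mouse hearts, with 10 genes chosen by symbol among the 19308 genes of the count table, and all 10 were counted in every heart and kept by the filter on low counts. None of the 10 passed edgeR's test after transverse aortic constriction (TAC) or with loss of *Fabp3*. DESeq2 called *Bdh1* for TAC in F3-KO hearts, beside 3% of all genes, and over both genotypes, beside 4.06%, but not in WT hearts. *Bdh1*, the enzyme that starts the oxidation of β-hydroxybutyrate, had its 3 highest values in the 3 F3-KO TAC hearts, as did 2.18% of all genes tested. The genes of BCAA breakdown *Bcat2*, *Bckdha*, *Bckdhb*, *Dbt*, *Bckdk* and *Ppm1k* had their lowest 2 values in F3-KO TAC replicates 1 and 2, as did 7.84% of all genes tested. The ketone gene *Acat1* had that order too. F3-KO TAC replicate 3 lay near the sham hearts. *Hibch*, also of BCAA breakdown, did not share that order.

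Beside fatty acids and glucose, the heart burns ketone bodies and BCAAs (leucine, isoleucine and valine). In ketone oxidation, *Bdh1* makes acetoacetate from β-hydroxybutyrate, *Oxct1* passes coenzyme A from succinyl-CoA to acetoacetate, and *Acat1* splits acetoacetyl-CoA into acetyl-CoA. The BCAAs lose their amino group through *Bcat2*, the mitochondrial transaminase, and their ketoacids are then decarboxylated by the branched-chain ketoacid dehydrogenase complex (BCKDH), the committed step. *Bckdha* and *Bckdhb* encode the subunits of its decarboxylase and *Dbt* its transacylase core. The kinase *Bckdk* switches the complex off by phosphorylation and the phosphatase *Ppm1k* switches it on again. *Hibch* encodes a hydrolase of the valine pathway further down, and *Acat1* also ends the breakdown of isoleucine.

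RNA was sequenced from whole hearts of C57BL/6 mice operated at 8 weeks of age and collected 1 week later, with 3 hearts in each of 4 groups: WT sham, F3-KO sham, WT TAC and F3-KO TAC. F3-KO mice lack *Fabp3*, a fatty acid-binding protein of heart and muscle, in every tissue, through CRISPR-Cas9, so that the loss is not limited to cardiomyocytes. In TAC the aortic arch was tied against a 27-gauge needle that was then withdrawn, which leaves the left ventricle to pump against a raised pressure, and sham hearts had no tie. The comparisons address how pressure overload and loss of *Fabp3* bear on the fuel genes of the heart.

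The hearts held 10424334 to 14372011 estimated counts each, and the 10 genes held between 637 and 19173 counts in any heart. Counting error was thus small beside the spread over the 12 hearts, a coefficient of variation of 14.8% to 33.1%. Within single groups the spread was as low as 3.01% (*Bckdk*, F3-KO sham), where counting error need not be small. Values are CPM (counts scaled to library size) after TMM scaling, with the SD over the 3 hearts of a group. Tests are edgeR's quasi-likelihood test on all 14094 genes kept, with Benjamini-Hochberg adjustment over all of them, and a gene was called at an adjusted p under 0.05. A nominal p is the same test's p before adjustment. *Fabp3* was at 2117 to 3064 CPM in the WT hearts and 1002 to 1143 CPM in the F3-KO hearts, so that its RNA was lower but still counted in the knockout. *Nppb*, the natriuretic peptide gene induced by wall stress, was at 95.05 to 311 CPM in sham and 411 to 776 CPM in TAC hearts (log2 fold change over both genotypes 1.86, adjusted p = 0.0105, edgeR). The 8 cardiomyocyte markers summed to 50090 to 96300 CPM over the 12 hearts. The 8 fibroblast markers summed to 762 to 1554 CPM in sham hearts, to 3308, 1530 and 1471 CPM in WT TAC replicates 1, 2 and 3, and to 4067, 7157 and 1596 CPM in F3-KO TAC replicates 1, 2 and 3. Hepatocyte markers summed to 101 and 165 CPM in F3-KO TAC replicates 2 and 3 and to 3.68 to 16.4 CPM in the other 10 hearts.

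Levels of different genes were set side by side as CPM per kilobase of exon, with exon lengths from GENCODE M21, which may differ from the annotation behind the counts. On this scale *Oxct1* was the most abundant of the 10 genes, at a mean of 401 CPM per kb over the 12 hearts, followed by *Acat1* (199 CPM per kb) and *Bckdha* (153 CPM per kb). *Bckdhb*, *Bcat2*, *Hibch* and *Bdh1* lay close together at 48.7, 47.3, 45.4 and 39.3 CPM per kb. The lowest levels were those of *Bckdk* (33.3 CPM per kb), *Dbt* (21.6 CPM per kb) and *Ppm1k* (16.4 CPM per kb). *Bdh1* was thus the least abundant of the ketone genes, and in F3-KO TAC hearts its level of 55.8 ± 7.10 CPM per kb (SD, n = 3) was above those of *Bckdhb* (36.0 ± 13.9 CPM per kb) and *Bcat2* (36.9 ± 13.2 CPM per kb), both of which exceeded it in WT sham hearts.

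Under TAC the ketone genes did not share a direction. *Bdh1* was at 114, 86.1 and 133 CPM in WT sham hearts and at 83.8, 140.3 and 99.6 CPM in F3-KO sham hearts. After TAC it was at 110.5, 163.7 and 180.0 CPM in WT replicates 1, 2 and 3 and at 197.7, 231.7 and 180.8 CPM in F3-KO replicates 1, 2 and 3. All 3 F3-KO TAC hearts thus lay above the other 9 hearts, an order found in 2.18% of all genes tested. The margin was narrow between F3-KO TAC replicate 3 and WT TAC replicate 3, and WT TAC replicate 1 lay within the sham range. In F3-KO hearts the log2 fold change of TAC against sham was 0.91 (standard error 0.23, 95% confidence interval 0.40 to 1.43, adjusted p = 0.175, edgeR), an 88.5% higher level that ranked 160 of 14094 genes by p. In WT hearts it was 0.45 (standard error 0.23, adjusted p = 0.796, edgeR), and over both genotypes 0.68 (standard error 0.17, adjusted p = 0.104, edgeR). The call on *Bdh1* depended on the test. DESeq2's Wald test called it in F3-KO hearts (log2 fold change 0.90, adjusted p = 0.0201) and over both genotypes (log2 fold change 0.67, adjusted p = 0.00742).

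The value of *Bdh1* in F3-KO TAC replicate 1, 197.7 CPM, came from a heart whose hepatocyte markers summed to 4.25 CPM, with *Alb* at 0.0759 CPM. *Alb* was at 54.0 and 89.6 CPM in F3-KO TAC replicates 2 and 3 and listed at 0 in the other 9 hearts, and *Apoc3* and *Fgb* were listed at 0 in all hearts but F3-KO TAC replicates 2 and 3. Without F3-KO TAC replicates 2 and 3 the log2 fold change of *Bdh1* in F3-KO hearts was 0.87 (edgeR), with the single remaining F3-KO TAC heart assumed to vary like the other groups. Whether liver RNA contributed to the *Bdh1* values was not tested.

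**Figure D1:**
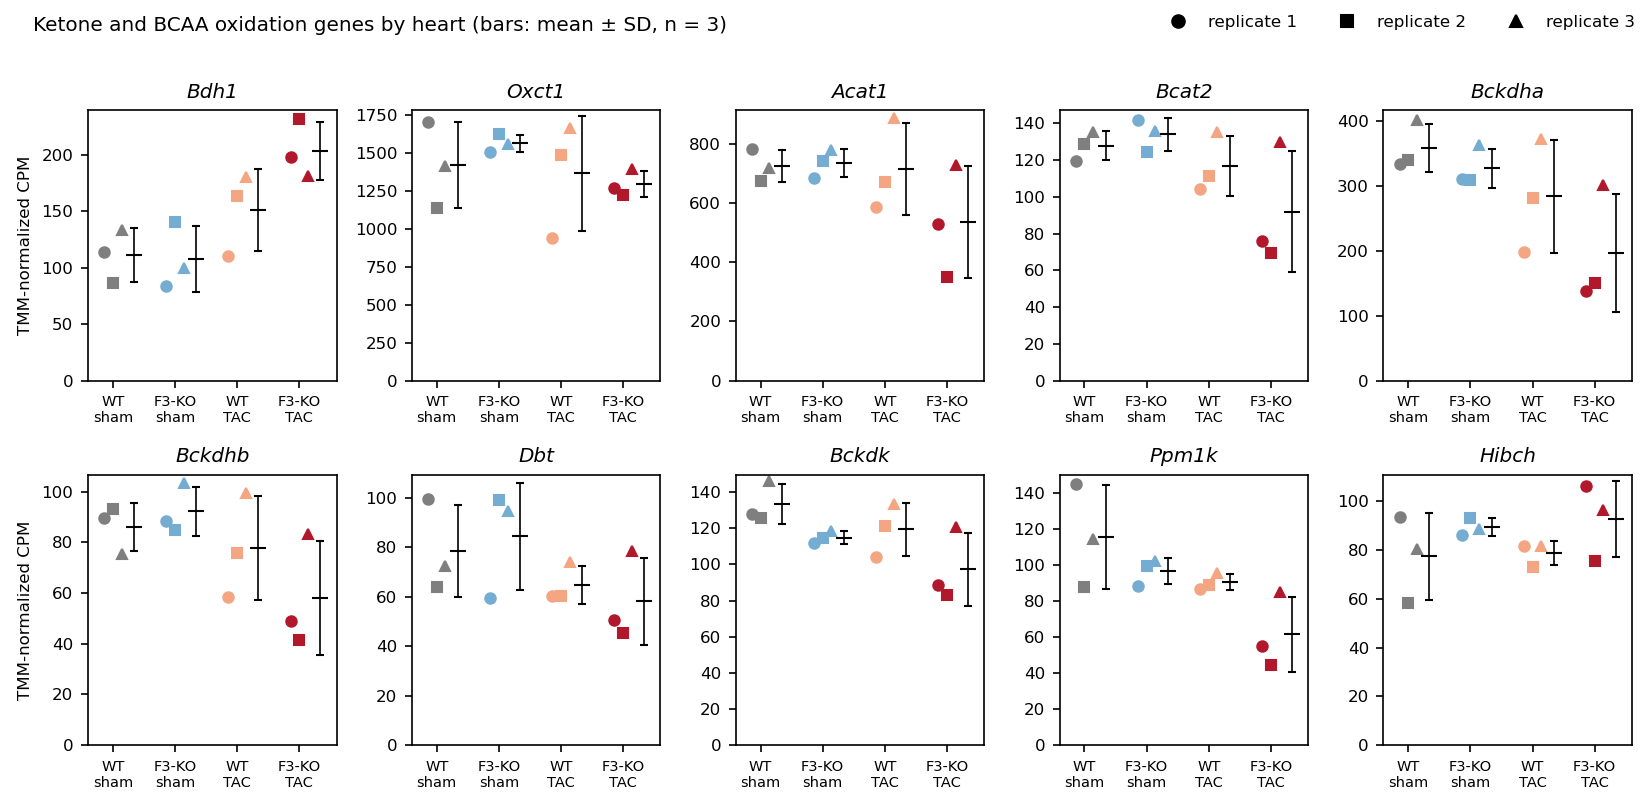
TMM-normalized CPM of each of the 10 genes (vertical axes, each from 0) in the 4 groups (horizontal axes), with 1 symbol per heart and the mean ± SD of 3 hearts beside them. *Bdh1* is highest in the 3 F3-KO TAC hearts (as are 2.18% of all genes tested), while 7 of the genes have their 2 lowest values in F3-KO TAC replicates 1 and 2 (as do 7.84%).

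*Oxct1*, the step that liver lacks, was at 1710, 1141 and 1416 CPM in WT sham, 1511, 1625 and 1563 CPM in F3-KO sham, 945, 1488 and 1669 CPM in WT TAC, and 1274, 1223 and 1394 CPM in F3-KO TAC hearts. The F3-KO TAC hearts lay below the F3-KO sham hearts without overlap, but within the range of either WT group. The log2 fold change of TAC against sham was -0.27 in F3-KO hearts (95% confidence interval -0.73 to 0.19, adjusted p = 0.541, edgeR) and -0.06 in WT hearts (95% confidence interval -0.52 to 0.40, adjusted p = 0.978, edgeR).

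*Acat1* was at 781, 673 and 719 CPM in WT sham, 682, 743 and 778 CPM in F3-KO sham, 588, 669 and 885 CPM in WT TAC, and 528, 349 and 727 CPM in F3-KO TAC hearts. F3-KO TAC replicates 1 and 2 were the lowest hearts of the 12, and replicate 3 was within the sham range. Its log2 fold change of TAC against sham was -0.46 in F3-KO hearts (95% confidence interval -0.97 to 0.06, adjusted p = 0.341, edgeR) and -0.02 in WT hearts (adjusted p = 0.992, edgeR).

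Within each heart, the log2 ratio of *Bdh1* to *Oxct1* CPM described the start of the pathway against the step after it, and was chosen with the values of both genes known. Among sham hearts it was -3.91, -3.73 and -3.41 with *Fabp3* and -4.17, -3.53 and -3.97 without. Among TAC hearts it was -3.10, -3.18 and -3.21 in the WT group and -2.69, -2.40 and -2.95 in the F3-KO group. All 6 TAC hearts lay above all 6 sham hearts, and the F3-KO TAC hearts lay above the WT TAC hearts. Neither gene alone separated the TAC from the sham hearts, and the share of other gene pairs with such a separation was not counted.

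Other genes of ketone metabolism gave no call by edgeR either. Of 10 listed, 9 were in the table and 7 were tested, and edgeR called 0 for TAC over both genotypes, where DESeq2 called 1 (*Aacs*) beside 4.06% of all genes, with 3 at a nominal p no higher than 0.05 beside 17.8% of all genes and a median log2 fold change of 0.001. *Aacs*, which activates acetoacetate for lipid synthesis in the cytosol, had the highest log2 fold change, 0.71 (adjusted p = 0.121, edgeR), at levels of 2.34 to 6.00 CPM. The monocarboxylate transporters *Slc16a7* (-0.55, adjusted p = 0.176) and *Slc16a1* (-0.31, adjusted p = 0.260, edgeR), which carry ketone bodies and lactate across the cell membrane, had the lowest log2 fold changes. *Oxct2b*, a testis relative of *Oxct1*, was at 0.0971 CPM in WT sham replicate 1 and listed at 0 in the other 11 hearts.

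Among the BCAA genes, the lowest values of *Bcat2*, *Bckdha*, *Bckdhb*, *Dbt*, *Bckdk* and *Ppm1k* lay in F3-KO TAC replicates 1 and 2. None of these genes was called by edgeR. *Dld*, a further gene of BCKDH outside the 10, did not share that order. It was at 388 CPM in F3-KO TAC replicate 1 and 337 CPM in WT sham replicate 2. *Bckdha* was at 334, 340.2 and 402 CPM in WT sham and 310.1, 309 and 362 CPM in F3-KO sham hearts. After TAC it was at 198, 281 and 372 CPM in WT replicates 1, 2 and 3 and at 139, 149.9 and 301 CPM in F3-KO replicates 1, 2 and 3. The F3-KO TAC hearts did not overlap the F3-KO sham hearts, with replicate 3 just below them, whereas WT TAC replicate 3 lay inside the sham range. The log2 fold change was -0.74 in F3-KO hearts (standard error 0.29, 95% confidence interval -1.36 to -0.11, adjusted p = 0.228, edgeR) and -0.34 in WT hearts (standard error 0.29, adjusted p = 0.863, edgeR).

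*Bckdhb*, the partner subunit, was at 89.8, 93.4 and 75.4 CPM in WT sham, 88.5, 85.0 and 103 CPM in F3-KO sham, 58.3, 75.7 and 99.4 CPM in WT TAC, and 49.1, 41.4 and 83.5 CPM in F3-KO TAC hearts. Replicate 3 was the highest heart of each TAC group, as for *Bckdha*. The log2 fold change was -0.67 in F3-KO hearts (95% confidence interval -1.21 to -0.13, adjusted p = 0.216, edgeR) and -0.15 in WT hearts (adjusted p = 0.943, edgeR).

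*Dbt*, the core of the complex, was at 99.4, 63.8 and 72.3 CPM in WT sham, 59.4, 99.0 and 94.8 CPM in F3-KO sham, 60.1, 60.2 and 73.8 CPM in WT TAC, and 50.6, 45.4 and 78.3 CPM in F3-KO TAC hearts. Its sham hearts ranged from 59.4 to 99.4 CPM, and the groups overlapped in both genotypes. The log2 fold change was -0.54 in F3-KO hearts (adjusted p = 0.290, edgeR) and -0.28 in WT hearts (adjusted p = 0.870, edgeR).

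*Bcat2* was at 120, 129 and 135 CPM in WT sham, 142, 124 and 136 CPM in F3-KO sham, 104, 111 and 135 CPM in WT TAC, and 76.3, 69.6 and 130 CPM in F3-KO TAC hearts. F3-KO TAC replicate 3 was again inside the sham range. The log2 fold change was -0.55 in F3-KO hearts (adjusted p = 0.218, edgeR) and -0.13 in WT hearts (adjusted p = 0.937, edgeR).

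The kinase and the phosphatase of BCKDH lay lower by unequal amounts. *Ppm1k* was at 145.0, 87.5 and 115 CPM in WT sham, 88.3, 99.6 and 102 CPM in F3-KO sham, 86.9, 89.0 and 95.3 CPM in WT TAC, and 54.9, 44.7 and 84.9 CPM in F3-KO TAC hearts. All 3 F3-KO TAC hearts lay below the other 9 hearts, replicate 3 by a narrow margin, and the share of all genes with that order was not counted. The log2 fold change of TAC against sham was -0.65 in F3-KO hearts (standard error 0.22, 95% confidence interval -1.14 to -0.17, adjusted p = 0.196, edgeR) and -0.36 in WT hearts (adjusted p = 0.827, edgeR).

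*Bckdk* was at 128, 126 and 146 CPM in WT sham, 112, 115 and 119 CPM in F3-KO sham, 104, 122 and 133 CPM in WT TAC, and 88.8, 83.1 and 121 CPM in F3-KO TAC hearts. Its log2 fold change was -0.24 in F3-KO hearts (adjusted p = 0.439, edgeR) and -0.16 in WT hearts (adjusted p = 0.880, edgeR). The log2 ratio of kinase to phosphatase CPM within a heart was -0.18, 0.53 and 0.35 (WT) and 0.34, 0.20 and 0.22 (F3-KO) among sham hearts. Among TAC hearts it was 0.26, 0.45 and 0.48 in the WT group and 0.69, 0.90 and 0.51 in the F3-KO group. It was higher in all 3 F3-KO TAC than in all 3 F3-KO sham hearts, and overlapped between WT TAC and WT sham hearts. For this ratio too, the share of other gene pairs without overlap was not counted. WT sham replicate 2, at 0.53, lay above F3-KO TAC replicate 3.

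*Hibch* stood apart from the genes upstream of it, at 93.4, 58.4 and 80.3 CPM in WT sham, 86.2, 93.3 and 88.8 CPM in F3-KO sham, 81.7, 72.9 and 81.7 CPM in WT TAC, and 106, 75.6 and 96.2 CPM in F3-KO TAC hearts. Its log2 fold change of TAC against sham was 0.05 in F3-KO hearts (95% confidence interval -0.32 to 0.42, adjusted p = 0.907, edgeR) and 0.03 in WT hearts (95% confidence interval -0.34 to 0.39, adjusted p = 0.989, edgeR). F3-KO TAC replicate 1, among the lowest hearts for *Bckdha*, *Bckdhb* and *Dbt*, was the highest of the 12 for *Hibch*.

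**Figure D2:**
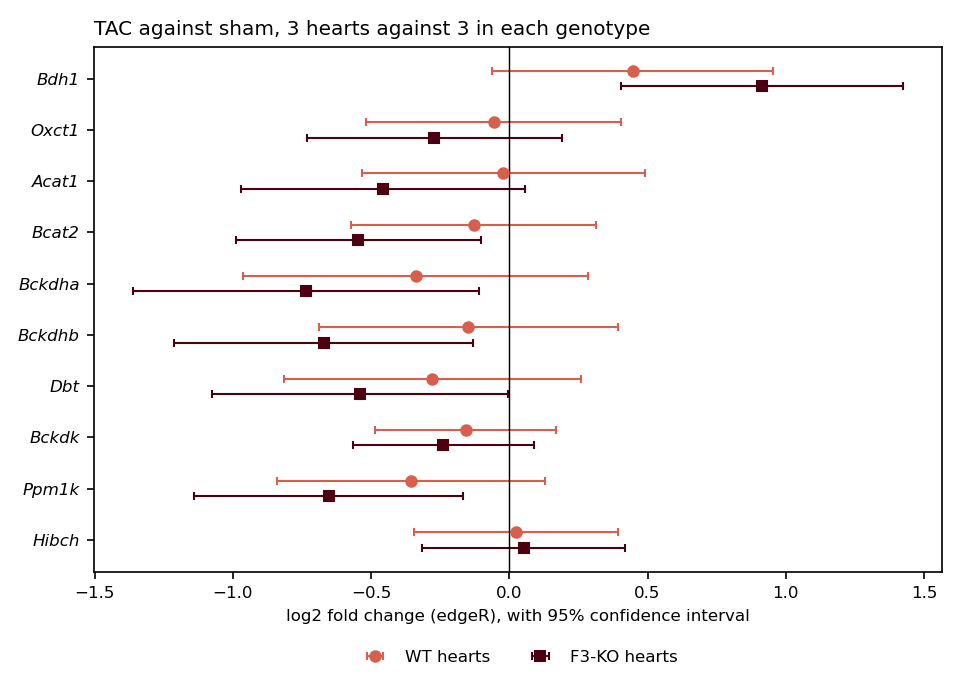
Log2 fold change of TAC against sham (horizontal axis, points) with its 95% confidence interval (bars) for each gene, in WT hearts (circles) and F3-KO hearts (squares). *Bdh1* has positive values in both genotypes, and in F3-KO hearts 8 of the 10 genes have negative values, none with an adjusted p under 0.05.

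Counted over the 10 genes, edgeR called 0 for TAC in F3-KO hearts, where it called 0% of all genes tested, and DESeq2 called 1 beside 3% of all genes. The nominal p was no higher than 0.05 for 6 of 10 (*Bdh1* higher, and *Bcat2*, *Bckdha*, *Bckdhb*, *Dbt* and *Ppm1k* lower), beside 17.1% of all genes. The F3-KO groups did not overlap for 5 of the 10 (*Bdh1*, *Oxct1*, *Bckdha*, *Bckdhb* and *Ppm1k*), beside 22.9% of all genes. In WT hearts edgeR also called 0 of the 10 and 0% of all genes, with 0 of 10 at a nominal p no higher than 0.05 beside 6.28% of all genes, 0 of 10 by DESeq2 beside 0.164%, and 0 of 10 without overlap beside 9.13% of all genes. Over both genotypes edgeR called 0 of the 10 beside 0.078% of all genes, and the nominal p was no higher than 0.05 for the same 6 genes as in F3-KO hearts, beside 17.8% of all genes. DESeq2 called 1 of the 10 there, beside 4.06% of all genes. With all 6 TAC hearts set against all 6 sham hearts, 0 of the 10 had no overlap, beside 0.837% of all genes. The median log2 fold change of the 10 genes was -0.50 in F3-KO hearts and -0.14 in WT hearts, and that of all genes tested was 0.02 and 0.

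The number of genes that edgeR called for TAC in F3-KO hearts and over both genotypes depended on F3-KO TAC replicate 3. Without it, 5 of the 10 genes were called for TAC in F3-KO hearts, with log2 fold changes of 0.99 for *Bdh1* (adjusted p = 0.0496), -0.88 for *Bcat2* (adjusted p = 0.0154), -1.18 for *Bckdha* (adjusted p = 0.0259), -1.03 for *Bckdhb* (adjusted p = 0.0282) and -0.96 for *Ppm1k* (adjusted p = 0.0277, edgeR). In that fit 5.43% of all genes were called, against 0% with all hearts, and over both genotypes the same 5 genes were called beside 5.92% of all genes. Leaving out any other single heart called 0 of the 10 in any comparison. *Nppb* was at 584 CPM in F3-KO TAC replicate 3, beside 626 and 647 CPM in replicates 1 and 2.

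**Figure D3:**
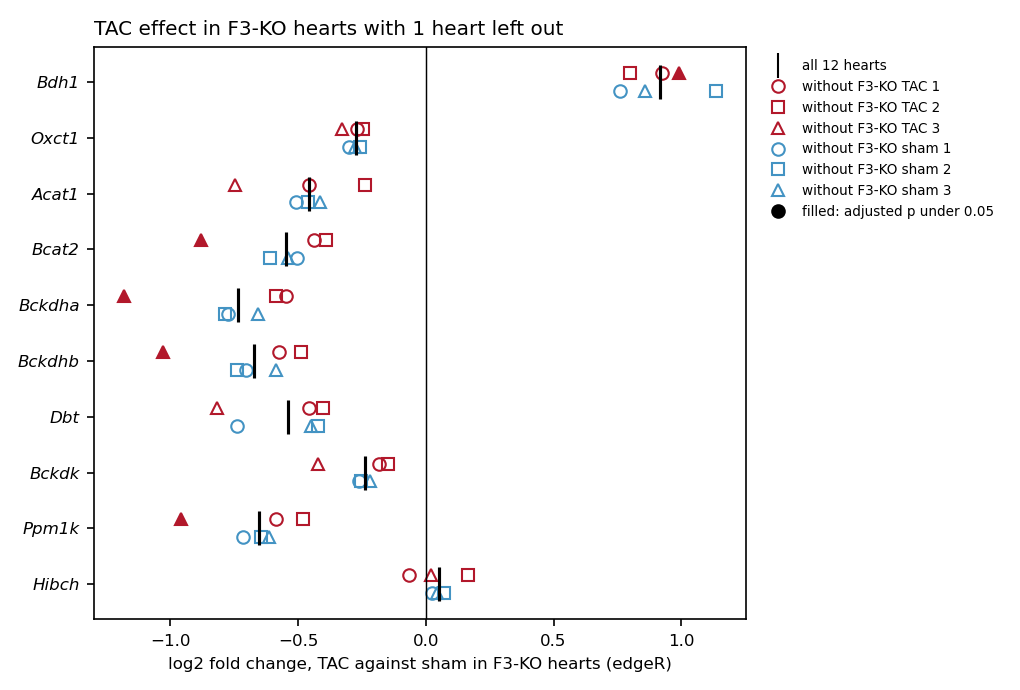
Log2 fold change of TAC against sham in F3-KO hearts (horizontal axis) for each gene with all hearts (vertical tick) and with 1 F3-KO heart left out (symbols, filled where the adjusted p is under 0.05). Filled symbols are found only without F3-KO TAC replicate 3, for *Bdh1*, *Bcat2*, *Bckdha*, *Bckdhb* and *Ppm1k*.

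The order of single hearts was shared by most of the genes. F3-KO TAC replicates 1 and 2 were the 2 lowest of the 12 hearts for 7 of the 10 genes, all but *Bdh1*, *Oxct1* and *Hibch*, beside 7.84% of all genes tested. Relative to the WT sham mean, the median log2 CPM of all 10 genes was -0.60, -0.82 and -0.0 in F3-KO TAC replicates 1, 2 and 3. It was -0.36, -0.16 and 0.09 in WT TAC replicates 1, 2 and 3. The 6 genes from *Bcat2* to *Ppm1k* are among the 7 with the shared order, so their median follows it by choice. That median was -0.77, -0.96 and -0.09 in F3-KO TAC replicates 1, 2 and 3. The corresponding values of the 6 genes were -0.37, -0.27 and 0.03 for WT TAC replicates 1, 2 and 3, and the sham hearts ranged from -0.23 to 0.05. *Bdh1* did not follow that order and lay at 0.85, 1.08 and 0.73 in F3-KO TAC replicates 1, 2 and 3, and at 0.02, 0.58 and 0.72 in WT TAC replicates 1, 2 and 3.

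Some markers of another cell type varied with these values and others did not. All 8 fibroblast markers were counted in every heart, and their sums were highest in the TAC hearts with the lowest BCAA gene values: 7157 CPM in F3-KO TAC replicate 2, 4067 CPM in F3-KO TAC replicate 1 and 3308 CPM in WT TAC replicate 1, against 1471 to 1596 CPM in the other 3 TAC hearts. The periostin gene *Postn* was at 1221 CPM in F3-KO TAC replicate 2 and 24.4 CPM in WT TAC replicate 3, and the collagen genes and *Lum* likewise had their highest 3 values in F3-KO TAC replicates 2 and 1 and WT TAC replicate 1. *Pdgfra* did not follow, at 51.1, 58.1 and 65.0 CPM in F3-KO TAC replicates 1, 2 and 3 and 62.1 CPM in WT sham replicate 2, nor did *Dcn*, at 730, 1080 and 1025 CPM in those TAC hearts and 1154 CPM in that sham heart. The fibroblast transcription factor gene *Tcf21* was at 4.08 to 9.44 CPM over all hearts. The 8 cardiomyocyte markers summed to 62330, 50090 and 58850 CPM in F3-KO TAC replicates 1, 2 and 3, 63550, 96300 and 79720 CPM in WT TAC replicates 1, 2 and 3, and 59760 to 90150 CPM in sham hearts. F3-KO TAC replicate 3 had a cardiomyocyte sum near those of replicates 1 and 2 and BCAA gene values near the sham hearts. In whole hearts, fewer cardiomyocytes and less RNA of these genes per cardiomyocyte cannot be told apart, and the part of cell make-up in the values was not tested.

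**Figure D4:**
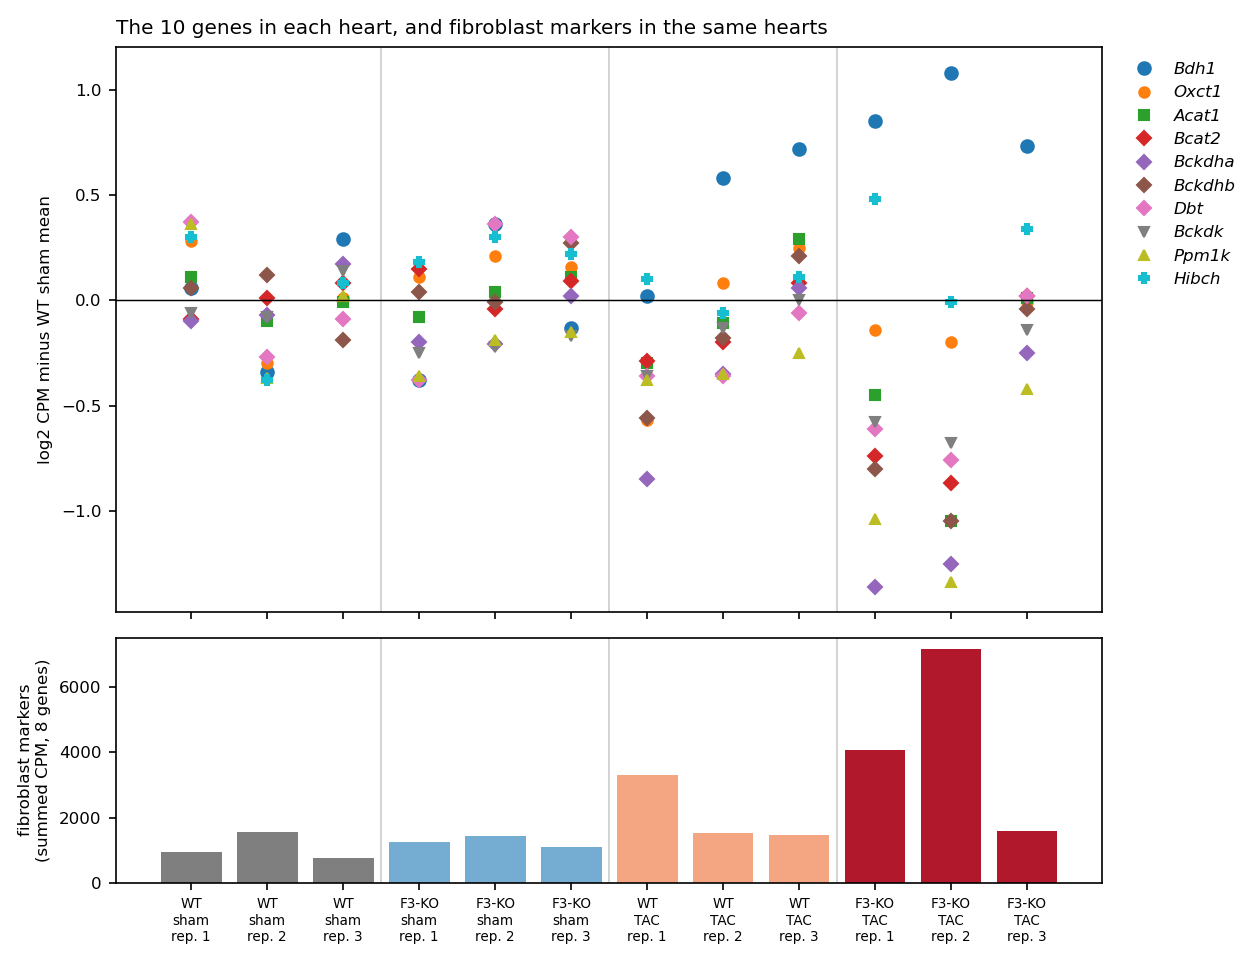
Log2 CPM of each of the 10 genes minus its WT sham mean (upper panel, 1 symbol per gene) and the summed CPM of 8 fibroblast markers (lower panel, bars) in each of the 12 hearts. *Bdh1* lies highest in the F3-KO TAC hearts at 0.73 to 1.08, while *Bckdha* and *Ppm1k* reach -1.36 and -1.34 in F3-KO TAC replicates 1 and 2, the hearts with fibroblast sums of 4067 and 7157 CPM.

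Spread within groups was widest in F3-KO TAC hearts for most of these genes, as it was over all genes tested. The biological coefficient of variation over all genes, the spread between hearts beyond counting error, was 0.294 in F3-KO TAC and 0.259 in WT TAC hearts. It was 0.207 in WT sham and 0.138 in F3-KO sham hearts. The coefficient of variation of *Bckdha* was 10.4% (WT) and 9.32% (F3-KO) after sham, and 30.7% (WT) and 46.0% (F3-KO) after TAC. That of *Bckdhb* was 11.1%, 10.6%, 26.5% and 38.6% in the same order, and that of *Bcat2* 6.10%, 6.66%, 13.9% and 35.8%. *Bdh1*, *Oxct1* and *Hibch* were the exceptions, *Hibch* with 16.9% in F3-KO TAC and 22.9% in WT sham hearts. *Bdh1* and *Oxct1* had 12.7% and 6.75% in F3-KO TAC hearts, below the 24.0% and 27.6% of WT TAC hearts. Between subunit genes of BCKDH, the log2 ratio of *Bckdha* to *Bckdhb* CPM averaged 2.06 ± 0.31 (WT) and 1.83 ± 0.03 (F3-KO) after sham, and 1.85 ± 0.08 (WT) and 1.74 ± 0.20 (F3-KO) after TAC (SD over 3 hearts), with overlap between sham and TAC in both genotypes.

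Among sham hearts, edgeR called 0 of the 10 genes between F3-KO and WT beside 0.106% of all genes, 0 of 10 had a nominal p no higher than 0.05 beside 6.02% of all genes, and DESeq2 called 0 beside 0.66%. The median log2 fold change of F3-KO against WT was 0.04, from -0.26 for *Ppm1k* to 0.21 for *Hibch*. Only *Bckdk* had no overlap between the genotypes after sham, with the 3 F3-KO hearts lower (log2 fold change -0.22, 95% confidence interval -0.54 to 0.11, adjusted p = 0.998, edgeR), beside 13.7% of all genes without overlap.

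After TAC, edgeR called 0 of the 10 between F3-KO and WT hearts beside 0.078% of all genes, and DESeq2 called 0 beside 0.594%. *Ppm1k* alone had a nominal p no higher than 0.05, beside 10% of all genes, with a log2 fold change of -0.56 (standard error 0.22, 95% confidence interval -1.04 to -0.07, adjusted p = 0.474, edgeR). *Bdh1* had a log2 fold change of 0.43 (95% confidence interval -0.08 to 0.93, adjusted p = 0.551, edgeR), and these 2 genes were the members without overlap between the genotypes after TAC, beside 11.4% of all genes. *Bckdha* (-0.53, adjusted p = 0.550), *Bckdhb* (-0.42, adjusted p = 0.565), *Acat1* (-0.42, adjusted p = 0.558), *Bcat2* (-0.35, adjusted p = 0.565) and *Bckdk* (-0.30, adjusted p = 0.528, edgeR) had negative values with overlapping groups. The lowest absolute values were those of *Oxct1* (-0.08), *Dbt* (-0.16) and *Hibch* (0.23), with adjusted p of 0.919, 0.841 and 0.630 (edgeR).

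Averaged over both surgeries, F3-KO against WT gave 0 calls of 10 beside 0.412% of all genes by edgeR, and 0 by DESeq2 beside 1.4%. A nominal p no higher than 0.05 was given to *Bckdk* (log2 fold change -0.26, adjusted p = 0.452) and *Ppm1k* (log2 fold change -0.41, adjusted p = 0.409, edgeR), the regulators of BCKDH, beside 10.1% of all genes. With 6 hearts against 6 the genotypes overlapped for all 10 genes, beside 0.639% of all genes without overlap. The genotype effect after TAC minus that after sham, which tests whether the knockout altered the response, gave 0 calls of 10 beside 0% of all genes, with 0 of 10 at a nominal p no higher than 0.05 beside 4.48% of all genes and 0 by DESeq2 beside 0.0313%. Its values were 0.47 for *Bdh1* (95% confidence interval -0.25 to 1.19), -0.52 for *Bckdhb* (95% confidence interval -1.29 to 0.24) and -0.44 for *Acat1* (95% confidence interval -1.16 to 0.29), each with an adjusted p of 0.954 (edgeR). The larger values in F3-KO than in WT hearts under TAC were therefore not shown to differ between the genotypes.

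**Figure D5:**
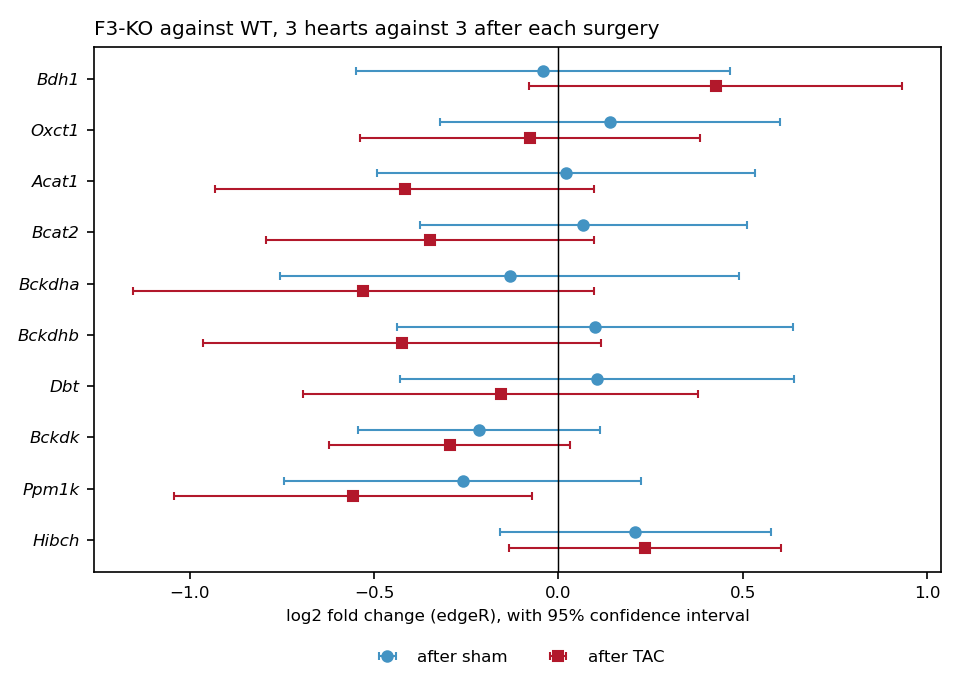
Log2 fold change of F3-KO against WT (horizontal axis, points) with its 95% confidence interval (bars) for each gene, after sham (circles) and after TAC (squares). After sham the values lie between -0.26 and 0.21, and after TAC between -0.56 for *Ppm1k* and 0.43 for *Bdh1*.

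Of the remaining genes of BCAA breakdown, all 22 listed were tested, and for TAC over both genotypes edgeR and DESeq2 each called 0 (DESeq2 called *Auh* in F3-KO hearts alone, log2 fold change -0.50, beside 3% of all genes), with 6 at a nominal p no higher than 0.05, 1 with a positive and 5 with a negative value, beside 17.8% of all genes. Of the 22, 20 had negative values, with a median log2 fold change of -0.25 beside -0.29 for the 10 genes, and in F3-KO hearts the median was -0.35. *Mccc2*, a subunit of the carboxylase of leucine breakdown, had the lowest value, -0.48 (adjusted p = 0.174), followed by *Mmaa*, which serves cobalamin handling for the propionate arm, at -0.34 (adjusted p = 0.244, edgeR). The highest were *Bcat1*, the cytosolic transaminase, at 0.94 (adjusted p = 0.300) and 0.486 to 4.78 CPM, and *Slc7a5*, the large neutral amino acid transporter, at 0.61 (adjusted p = 0.172, edgeR).

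Neighbouring fuel pathways also gave 0 calls by edgeR for TAC over both genotypes. DESeq2 called 1 of the 16 fatty acid oxidation genes there, *Etfb* (log2 fold change -0.58), 0 of the 17 TCA cycle genes and 0 of the 11 pyruvate dehydrogenase genes, beside 4.06% of all genes. In F3-KO hearts alone DESeq2 called 6 of the 16 (*Acaa2*, *Acadvl*, *Eci1*, *Etfb*, *Hadha* and *Slc25a20*, all lower after TAC) and 1 of the 17 (*Suclg1*, -0.69), beside 3% of all genes. Over both genotypes the 16 fatty acid oxidation genes had a median log2 fold change of -0.36, with all 16 negative. Of these, 10 had a nominal p no higher than 0.05, beside 17.8% of all genes. The values ran from -0.57 for *Etfb* and -0.55 for *Acaa2* to -0.16 for *Cpt1b* and -0.04 for *Acadl*. The 17 TCA cycle genes had a median of -0.26, all negative, from -0.34 for *Sdha* and -0.33 for *Sdhc* to -0.18 for *Mdh2* and -0.07 for *Sdhd*. The 11 genes of the pyruvate dehydrogenase complex and its regulators, the closest relatives of BCKDH, had a median of -0.09, from -0.51 for the phosphatase *Pdp2* and -0.38 for the kinase *Pdk2* to 0.30 for *Pdk3* and 1.12 for *Pdk4*. In F3-KO hearts the medians of the 16, 17 and 11 genes were -0.615, -0.429 and -0.223, beside -0.499 for the 10 genes. There 13 of the 16, 10 of the 17 and 1 of the 11 had a nominal p no higher than 0.05, beside 17.1% of all genes. *Pdk4* was at 1651 CPM in WT TAC replicate 1 and at 117 to 338 CPM in the other 11 hearts.

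For each of the 10 genes, the 3 tested genes with the most similar course over the 12 hearts were found by the root mean square difference of log2 CPM, after each gene was centred on its own mean. *Acat1* lay nearest to *Idh3b*, *Acadm* and *Pcca*, at differences of 0.092, 0.093 and 0.107, where its own root mean square around its mean was 0.334. *Bcat2* lay nearest to *Got1*, *Ndufv1* and *Mccc1* (0.092 to 0.101, own value 0.319). *Bckdha* lay nearest to *Pink1*, *Aldh2* and *Gcdh* (0.111 to 0.131, own value 0.488), and *Bckdhb* to *Gcdh*, *Eci1* and *Ldhb* (0.104 to 0.112, own value 0.397). *Dbt* lay nearest to *Gpn3* and *Mut*, at differences of 0.135 and 0.137 (own value 0.354).

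*Bdh1* was 0.210 from *Pdzd3*, 0.236 from *Slc1a4* and 0.250 from *Ttc39a*, with an own value of 0.462, the widest distances of the 10. *Ppm1k* lay 0.139 to 0.171 from *Smco1*, *Rtn2* and *Dsg2* (own value 0.425). *Bckdk* was nearest to *Trap1*, *Napa* and *Cog7* (0.077 to 0.083, own value 0.224), *Oxct1* to *Pdf*, *Trmt2b* and *Ptgr2* (0.109 to 0.113, own value 0.242) and *Hibch* to *Ncapd3*, *Epdr1* and *Ctr9* (0.1 to 0.116, own value 0.215). These distances are descriptions over 12 hearts that share their groups and their depth.

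Promoter sequence was read for the 8 genes found in the RefSeq promoter table, as the 250 bases before the transcription start on GRCm38.p6. The windows of *Ppm1k* and *Bckdhb* are shown because they alone of the 8 genes hold AGGTCA, the half-site read by nuclear receptors such as PPARα, which the study examined, and that of *Bdh1* because its log2 fold change under TAC had the opposite sign. Both strands were searched for AGGTCA, for its direct repeat AGGTCANAGGTCA, the form read by PPARα with its partner receptor, for the promoter element CCAAT, for the GC box with the letters GGGCGG, and for the core CACCC read by Krüppel-like factors. The direct repeat contains the half-site, and no matches overlap in the 3 windows. Capitals mark the matches, on either strand, and all else is in lower case.
Ppm1k, chr6:57535488-57535737, minus strand: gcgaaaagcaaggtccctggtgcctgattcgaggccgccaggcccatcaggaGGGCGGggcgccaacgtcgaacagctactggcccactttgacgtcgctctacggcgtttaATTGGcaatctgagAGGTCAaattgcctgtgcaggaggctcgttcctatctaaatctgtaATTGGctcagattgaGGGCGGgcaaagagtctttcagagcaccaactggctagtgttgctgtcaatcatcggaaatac
Bckdhb, chr9:83924887-83925136, plus strand: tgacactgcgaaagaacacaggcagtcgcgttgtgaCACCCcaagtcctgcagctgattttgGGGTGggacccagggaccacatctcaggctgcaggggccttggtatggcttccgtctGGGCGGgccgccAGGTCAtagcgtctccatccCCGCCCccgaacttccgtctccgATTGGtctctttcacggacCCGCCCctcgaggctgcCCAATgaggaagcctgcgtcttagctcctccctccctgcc
Bdh1, chr16:31428503-31428752, plus strand: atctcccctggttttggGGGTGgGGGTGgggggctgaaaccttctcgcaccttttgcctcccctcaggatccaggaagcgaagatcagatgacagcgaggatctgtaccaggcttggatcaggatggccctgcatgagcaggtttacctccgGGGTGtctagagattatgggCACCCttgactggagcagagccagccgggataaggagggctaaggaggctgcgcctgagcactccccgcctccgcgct

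*Ppm1k* and *Bckdhb* each held 1 half-site, beginning at -124 and -119 from the start, 2 CCAAT boxes, and 2 and 3 GC boxes. *Bckdhb* also held 2 CACCC cores, and none of the 5 motifs in the window of its other listed start. *Bdh1* held 4 CACCC cores and none of the other motifs in the window shown, and none of the 5 motifs in the window of its other listed start. The half-site was found in 2 of the 8 genes and in 15.8% of all 27025 genes with a window of that length. The direct repeat was found in 0 of the 8 and in 0.0407% of all genes. CCAAT was found in 3 of the 8 and 37.5% of all genes, the GC box in 3 of the 8 and 35.4%, and CACCC in 5 of the 8 and 54.5%. The matches are letters in these windows and nothing about binding was measured here.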

How the data were processed

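RNA-seq of 12 mouse hearts was analysed, 3 per group. The authors removed low-quality reads with SOAPnuke, mapped with HISAT2 2.0.4 and STAR 2.3.0, and deposited estimated counts per gene, which were not normalized and of which 40.6% were not whole numbers. The counting tool, build and annotation are not given in the sources used here. If reads were shared out between paralogs, their counts are uncertain. For 11 hearts a table per heart held the same values as the joint table, and for WT sham replicate 2 the joint table alone was used, since the table of that heart used here breaks off. Replicates of a group differed beyond sampling noise (chi-square per degree of freedom 9.95 to 83.8), and p-values measure the spread between hearts.

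The tests had been planned for counts, so estimated counts were rounded. They were filtered with filterByExpr (minimum count 10), scaled with TMM (factors 0.931 to 1.09) and fitted as 4 group means over 12 hearts (8 residual degrees of freedom) with edgeR 4.0.16 in R 4.3.3. There were 7 contrasts: TAC against sham in each genotype and averaged, F3-KO against WT after each surgery and averaged, and the difference of the genotype effects. Log2 CPM used a prior count of 2. The filter removed 5214 genes with 0.0773% of the counts, and the biological coefficient of variation was 0.232. With 3 hearts against 3, effects near the size of the standard errors given cannot be detected, and effects well above them can also go uncalled. An example is *Bdh1* for TAC in F3-KO hearts, at 0.91 with a standard error of 0.23 (adjusted p = 0.175, edgeR). The fits were tested on simulated data.

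Alternatives were DESeq2 1.42.0, DESeq2 size factors or library totals, limma-trend (limma 3.58.1), no filter or a minimum of 10 counts in each library, a replicate block, only the libraries compared, an unadjusted p, and leaving out each heart. A fit without F3-KO TAC replicates 2 and 3 was added after seeing the data. The 10 genes and the lists were chosen with earlier results of these data known. Genes outside the 10 were named by rule: in each pathway list, with none called, the highest 2 and lowest 2 log2 fold changes for TAC over both genotypes, and the 3 nearest genes of each of the 10. The further genes that DESeq2 called, *Pdk4* in single hearts, *Oxct2b*, *Alb* and the other hepatocyte and fibroblast markers named were singled out after their values were seen. *Dld* was also named after its values were seen. Of the genes this rule named, 2 are not reported here. *Mut* is the older symbol of *Mmut*, and *Oxct2a* was not used here.

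Of the other marker lists, summed CPM over the 12 hearts was 781 to 1340 for endothelial, 177 to 605 for macrophage, 0 to 1.59 for adipocyte, 0.705 to 4.85 for skeletal muscle, 1.65 to 24.7 for atrial and 321 to 4720 for red blood cell markers. *Nppa* (339 CPM in F3-KO sham replicate 1, 143 CPM in WT TAC replicate 2) and *Myh7* (174 CPM in F3-KO TAC replicate 1, 9179 CPM in WT sham replicate 2) overlapped between sham and TAC.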

Additional observations from a re-analysis of the deposited data

How the results depend on the processing

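The count of 0 genes called held for all 7 contrasts with DESeq2 size factors, library totals, either filter, limma-trend, the replicate block, and without F3-KO TAC replicates 2 and 3, and for the 4 contrasts between single groups with only the libraries compared. For TAC in F3-KO hearts it was 1 with DESeq2's Wald test (*Bdh1*), 6 at a nominal p no higher than 0.05, and 0 to 5 with each heart left out. For TAC over both genotypes it was likewise 1, 6 and 0 to 5, the 5 without F3-KO TAC replicate 3. That nominal p gave 1 gene for F3-KO against WT after TAC and 2 over both surgeries. The cause was not tested. Library totals moved the median of all genes to 0.118 for TAC in F3-KO hearts, 0.122 for F3-KO against WT after TAC and 0.161 for the difference of the genotype effects.

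Some values near 0 changed sign. With library totals these were *Acat1* after sham (-0.008), *Oxct1* after TAC (0.033) and *Dbt* over both surgeries (0.004) for F3-KO against WT, and *Bckdk* for the difference of the genotype effects (0.040). *Hibch* for that difference was -0.012 with limma-trend and with the replicate block. With each heart left out, the range of log2 fold changes that crossed 0 was for TAC in WT hearts *Oxct1* -0.226 to 0.150, *Acat1* -0.206 to 0.101, *Bckdhb* -0.363 to 0.023, *Hibch* -0.142 to 0.182, and for TAC in F3-KO hearts *Hibch* -0.067 to 0.166, and for TAC over both genotypes *Hibch* -0.046 to 0.116, and for F3-KO against WT after sham *Bdh1* -0.282 to 0.111, *Acat1* -0.031 to 0.077, *Dbt* -0.032 to 0.309, and for F3-KO against WT after TAC *Oxct1* -0.285 to 0.091, and for F3-KO against WT over both surgeries *Oxct1* -0.073 to 0.115, *Dbt* -0.164 to 0.075, and for the difference of the genotype effects *Bckdk* -0.263 to 0.018, *Hibch* -0.132 to 0.192. For TAC in F3-KO hearts the log2 fold changes of *Bdh1*, *Bcat2*, *Bckdha*, *Bckdhb*, *Dbt*, *Bckdk* and *Ppm1k* kept their sign under every setting run. Deviations of same-numbered hearts from their group means had correlations of -0.14 to 0.36, over 0.1 in 4 of 18 pairs. The highest, 0.36, was between replicate 3 of WT TAC and of F3-KO TAC, followed by 0.17 between replicate 1 of the same groups. The replicate block changed no call on the 10 genes. Depth was not the limit for these genes, at 637 counts or more.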
